A study of Mus musculus with 8 samples.

Results

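The genes of the histone-to-protamine exchange were taken by name: the transition proteins Tnp1 and Tnp2, the protamines Prm1 and Prm2 with their neighbour Prm3, the testis linker histones H1f6 (H1t), H1f7 (H1T2) and Hils1 (H1f9), the chromatin remodeler Chd5 and the kinase Camk4. These are 10 of the 19938 genes that have a probe set of their own on the array, a probe set being the group of probes that reads a gene. Each of the 10 had exactly 1 such probe set and none shared a probe set with another gene. Total RNA of whole testis was measured in 3 Ing2+/+ and 5 Ing2-/- mice, 1 array per mouse, on Affymetrix Mouse Gene 1.0 ST arrays. The controls were wild-type littermates and all mice were 2 to 3 months old. The Ing2 allele lacks exon 2, which was removed with EIIa-Cre, a Cre driver active in the early embryo, in a line made from 129/Sv embryonic stem cells. Carriers were then bred to C57BL/6J mice to lose the Cre transgene, so that all cells of an Ing2-/- mouse, somatic cells of the testis included, carry the deletion. The mice were separate animals, and the number of arrays limits the precision.

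As background, haploid round spermatids transcribe the transition protein and protamine genes and store the mRNAs for later translation. While the spermatid elongates, histones are removed, transition proteins take their place on the DNA, and protamines then pack the sperm nucleus tightly. Testis linker histones loosen or mark the chromatin before and during this step, Chd5 remodels it, and Camk4 encodes a calcium-dependent kinase that phosphorylates protamine 2.

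Levels are given on the log2 scale of RMA (robust multi-array average) values, and differences are Ing2-/- minus Ing2+/+ on that scale. The test was limma's moderated linear model over the 35557 probe sets, and "called" below means an adjusted p under 0.05 after Benjamini-Hochberg correction for all of them. Ing2 itself, the check of the labels, differed by −2.16 (adjusted p = 3.95e-04 from limma), from 7.46 ± 0.13 (SD, n = 3) in wild-type to 5.29 ± 0.22 (SD, n = 5) in deleted mice. Ing2-/- replicate 3 stood apart. Its mean level of 14 Sertoli cell markers lay 1.07 above the Ing2+/+ mean, against 0.38 over the other 4 Ing2-/- arrays, and its mean level of 14 round spermatid markers lay at −0.89 against −0.28. The differences of the exchange genes, and the main results on the pathway, are therefore also given without that array.

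Of the 10 genes, 4 lie side by side on chromosome 16 in the RefSeq table of GRCm38.p6, in the order Tnp2, Prm3, Prm2 and Prm1, with 0 genes listed between them and all on the minus strand. Tnp1 lies on chromosome 1, Chd5 on 4, Hils1 on 11, H1f6 on 13, H1f7 on 15 and Camk4 on 18. RefSeq promoter windows (GRCm38.p6, 250 bases before to 50 after the gene's start) were used for 9 of the 10, without Camk4. The 120 bases before the start of 5 of them are shown, because these windows hold a match to the cyclic AMP response element (CRE) letters in part or to the TATA letters; Hils1, whose match runs across its start, is not shown, and Chd5 is shown for the first of its annotated starts. Each is written 5′ to 3′ along the gene's strand, with matches in capitals.
Tnp1 (chr1:73015900-73016019, minus strand): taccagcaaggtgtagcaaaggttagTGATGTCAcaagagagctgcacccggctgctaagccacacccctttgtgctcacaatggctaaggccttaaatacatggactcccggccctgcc
Prm1 (chr16:10796824-10796943, minus strand): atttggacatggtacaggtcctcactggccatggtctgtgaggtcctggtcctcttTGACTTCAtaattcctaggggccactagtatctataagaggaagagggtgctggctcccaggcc
Prm3 (chr16:10790915-10791034, minus strand): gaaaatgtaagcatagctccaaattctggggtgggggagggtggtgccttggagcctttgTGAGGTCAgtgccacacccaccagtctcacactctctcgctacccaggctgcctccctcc
Prm2 (chr16:10792106-10792225, minus strand): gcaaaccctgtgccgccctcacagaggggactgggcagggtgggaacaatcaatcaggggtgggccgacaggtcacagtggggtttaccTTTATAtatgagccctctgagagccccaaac
Chd5 (chr4:152338531-152338650, plus strand): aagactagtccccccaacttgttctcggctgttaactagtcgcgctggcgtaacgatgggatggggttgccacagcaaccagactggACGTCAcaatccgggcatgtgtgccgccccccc

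The CRE is the site of the transcription factor family of CREM, a main activator in spermatids. On both strands of the windows, the full CRE TGACGTCA was found before 0 of the 9 genes and in 1.79% of all 32851 RefSeq windows of this length. Its part TGACGT, which the full CRE also holds, was found for Chd5 (7.51% of all windows), as ACGTCA on the shown strand. TGANNTCA, which also contains the full CRE and was chosen after these sequences had been seen, matched Tnp1, Prm1, Prm3 and Hils1, that is 4 of 9 (14.1% of all windows), starting at position −94 from the gene's start in Tnp1 as TGATGTCA, at −64 in Prm1 as TGACTTCA, at −60 in Prm3 as TGAGGTCA and at −7 in Hils1, across its start. TATAAA was found in Prm2 (13.6% of all windows), on the strand opposite to the gene's and so as TTTATA on the shown strand. CCAAT was found in H1f6, Prm3 and Hils1 (37.4%). These matches are descriptions of the letters in the windows.

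All 10 genes had lower mean levels in Ing2-/- than in Ing2+/+ testes, as did 15236 of all 35557 probe sets. Limma called 0 of the 10, with differences from −0.54 for Chd5 to −0.11 for H1f6. Of all probe sets, 3.03% were called lower and 1.79% higher. At an unadjusted p under 0.05, 2 of the 10 were lower, Chd5 and H1f7, and 11.8% of all probe sets were. In these same 2 genes the groups did not overlap, all Ing2-/- arrays being lower, as in 12.2% of all probe sets. The median difference of the 10 was −0.21, beside 0.03 over all probe sets. By the random variance model, the test named in the study's methods, 0 of the 10 were below its p of 0.001, and 1.84% of all probe sets were lower at that threshold. When arrays were instead set to the same Sertoli marker median, 10 of the 10 were called lower, as were 58.7% of all probe sets, whose median then was −0.52. In whole testis RNA, fewer cells of a type and less RNA per cell cannot be told apart.

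**Figure D1:**
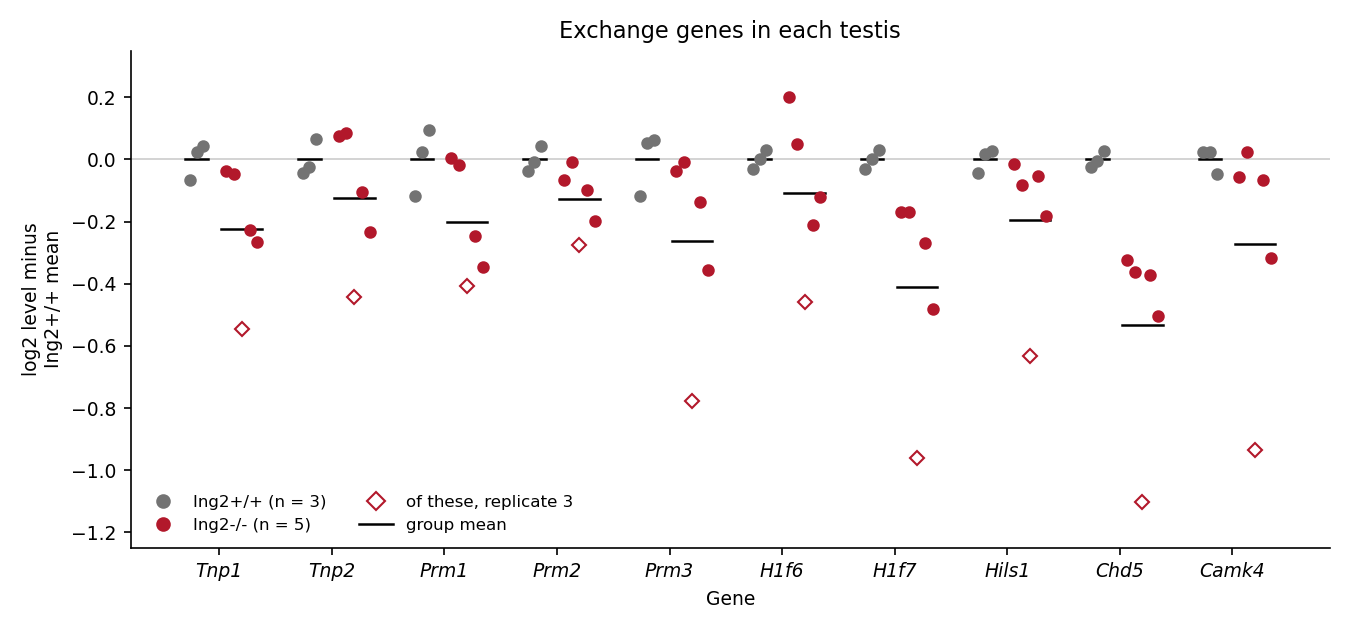
Level of each gene in each testis on the log2 scale (vertical axis), set to 0 at the Ing2+/+ mean; grey points are the 3 Ing2+/+ and red points the 5 Ing2-/- testes. Replicate 3 of Ing2-/- is an open diamond and horizontal bars are group means. The diamond is the lowest array of all 10 genes, and the groups are separate for Chd5 and H1f7.

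The 5 Ing2-/- testes differed in how far the 10 genes as a whole lay from the controls. Their median level relative to the Ing2+/+ mean was −0.04 in Ing2-/- replicate 1, −0.01 in replicate 2, −0.59 in replicate 3, −0.18 in replicate 4 and −0.29 in replicate 5. Replicate 3 was the lowest array for 10 of 10 genes and replicate 5 the next lowest for 9. In replicates 3, 4 and 5 all 10 genes lay below the Ing2+/+ mean, and in replicates 1 and 2 each 7 did.
The markers of spermatids were also lowest in replicate 3, with mean levels of 14 round spermatid markers of −0.29, −0.32, −0.89, −0.16 and −0.34 in Ing2-/- replicates 1 to 5, and of 13 elongating spermatid markers of −0.16, −0.17, −0.77, −0.21 and −0.38. In Ing2+/+ testes these means lay between −0.03 and 0.05. Markers of Sertoli cells lay at 0.40, 0.27, 1.07, 0.33 and 0.50, and those of 7 measured Leydig cell genes between 0.37 and 1.11. Of the spermatid markers, 14 of 14 and 13 of 13 were above the median of unnamed probe sets on all arrays, as were all 10 exchange genes. The exchange genes are set against these spermatid markers further on, and the part of the Sertoli and Leydig cell share in their levels was not tested.

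The transition protein gene Tnp1, whose product replaces histones in the elongating spermatid, had 11.14, 11.23 and 11.25 in the Ing2+/+ testes and 11.17, 11.16, 10.66, 10.98 and 10.94 in Ing2-/- replicates 1 to 5. Replicates 1 and 2 lay inside the Ing2+/+ range and the other 3 below it. The difference was −0.22 (SE 0.116, adjusted p = 0.243 from limma), and −0.14 without Ing2-/- replicate 3. Tnp2, the zinc-binding transition protein, had 11.83, 11.85 and 11.94 in the controls and 11.95, 11.96, 11.43, 11.77 and 11.64 in Ing2-/- testes. Here the Ing2-/- arrays reached both above and below the controls, with 2 above all 3 Ing2+/+ arrays and 3 below. Its difference was −0.12 (SE 0.122, adjusted p = 0.552 from limma), with a 95% confidence interval from −0.40 to 0.15. Without replicate 3 it was −0.04. Relative to the Ing2+/+ means, Tnp1 minus Tnp2 lay between −0.13 and −0.04 in the Ing2-/- testes and between −0.02 and 0.05 in the Ing2+/+ testes, without overlap (exact permutation p = 0.0179, and p = 0.0571 without replicate 3). This is 1 of the 45 pairs compared further on, and adjusted over them it did not pass (adjusted p = 0.0804 from the exact test).

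Among the protamines, which form the final packing of sperm DNA, Prm1 had 11.35, 11.49 and 11.56 in Ing2+/+ testes and 11.47, 11.45, 11.06, 11.22 and 11.12 in Ing2-/- testes. Replicates 1 and 2 again lay within the Ing2+/+ range, and the other 3 below it. The difference was −0.20 (SE 0.112, adjusted p = 0.272 from limma), and −0.15 without replicate 3. Prm2, which is made as a precursor and then cut to its mature form, had 12.80, 12.83 and 12.88 in the controls and 12.77, 12.83, 12.56, 12.74 and 12.64 in Ing2-/- testes. Only replicate 2 was not below all controls, yet the values spanned little, and the difference was −0.13 (SE 0.0749, adjusted p = 0.307 from limma, 95% confidence interval −0.30 to 0.04). Replicate 3, its lowest array, lay at −0.27 relative to the Ing2+/+ mean, the smallest such distance of the 10 genes on that array, and without it the difference of Prm2 was −0.09. Prm3, which lies between Tnp2 and Prm2 and encodes a small acidic protein, ranged from 9.91 to 10.09 in controls and from 9.25 to 10.02 in Ing2-/- testes. Its difference was −0.27 (adjusted p = 0.338 from limma), and −0.14 without replicate 3, for which Prm3 lay at −0.78. All 3 genes thus had overlapping groups, and their levels in replicates 1 and 2 lay inside the Ing2+/+ range except that of Prm2 in replicate 1.

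The testis linker histones had differences from −0.41 for H1f7 to −0.11 for H1f6. H1f7, a linker histone placed at one pole of the spermatid nucleus, had 10.78, 10.81 and 10.84 in Ing2+/+ testes. In Ing2-/- testes it had 10.64, 10.64, 9.85, 10.54 and 10.33, all below the controls. The means were 10.81 ± 0.029 (SD, n = 3) and 10.40 ± 0.33 (SD, n = 5), the second being 75.2% of the first on the linear scale, a difference of −0.41 (SE 0.172, adjusted p = 0.163 from limma), which is not past the threshold. Without replicate 3 it was −0.27 (adjusted p = 0.0679 from limma). H1f6, the linker histone made from the pachytene spermatocyte stage on, had 9.63, 9.66 and 9.69 in the controls and 9.86, 9.71, 9.20, 9.45 and 9.54 in Ing2-/- testes. These lay on both sides of the controls, 2 above and 3 below, with a difference of −0.11 (95% confidence interval −0.41 to 0.20, adjusted p = 0.648 from limma), and −0.02 without replicate 3. Hils1, the linker histone of elongating spermatids, had 11.10, 11.16 and 11.17 in the controls and 11.13, 11.06, 10.51, 11.09 and 10.96 in Ing2-/- testes. Replicate 3 lay at −0.63 relative to the Ing2+/+ mean, and the other Ing2-/- levels ran from 10.96 to 11.13. The difference was −0.19 (adjusted p = 0.386 from limma), and −0.08 without replicate 3.

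Chd5, a chromodomain helicase that is needed for the exchange, was lower in every Ing2-/- testis and had the largest difference of the 10 genes. It had 10.59, 10.61 and 10.64 in Ing2+/+ testes and 10.29, 10.25, 9.51, 10.24 and 10.11 in Ing2-/- testes. The Ing2-/- testes lay between −1.11 and −0.33 relative to the Ing2+/+ mean, and their spread came mostly from replicate 3. The means were 10.61 ± 0.024 (SD, n = 3) and 10.08 ± 0.33 (SD, n = 5), the second being 68.9% of the first on the linear scale. The difference of −0.54 (SE 0.169, 95% confidence interval −0.92 to −0.15) had an adjusted p = 0.0903 from limma and so was not called. By an exact two-sided permutation test of each of the 10 genes, not adjusted, Chd5 had p = 0.0179, the smallest p that 3 against 5 arrays can give, H1f7 had p = 0.0714 and the other 8 genes had values from 0.125 to 0.554. Without Ing2-/- replicate 3 the difference was smaller, −0.39 (SE 0.0624), but the other 4 arrays lay between 10.11 and 10.29, and limma called Chd5 lower (adjusted p = 0.00924). It was then the only called gene of the 10, where 6.77% of all probe sets were called lower and 7.31% higher. Camk4 ranged from 8.88 to 8.95 in controls and from 7.99 to 8.95 in Ing2-/- testes, with a difference of −0.27 (adjusted p = 0.421 from limma). Replicate 3 lay at −0.93 relative to the Ing2+/+ mean, and without it the difference was −0.10.

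**Figure D2:**
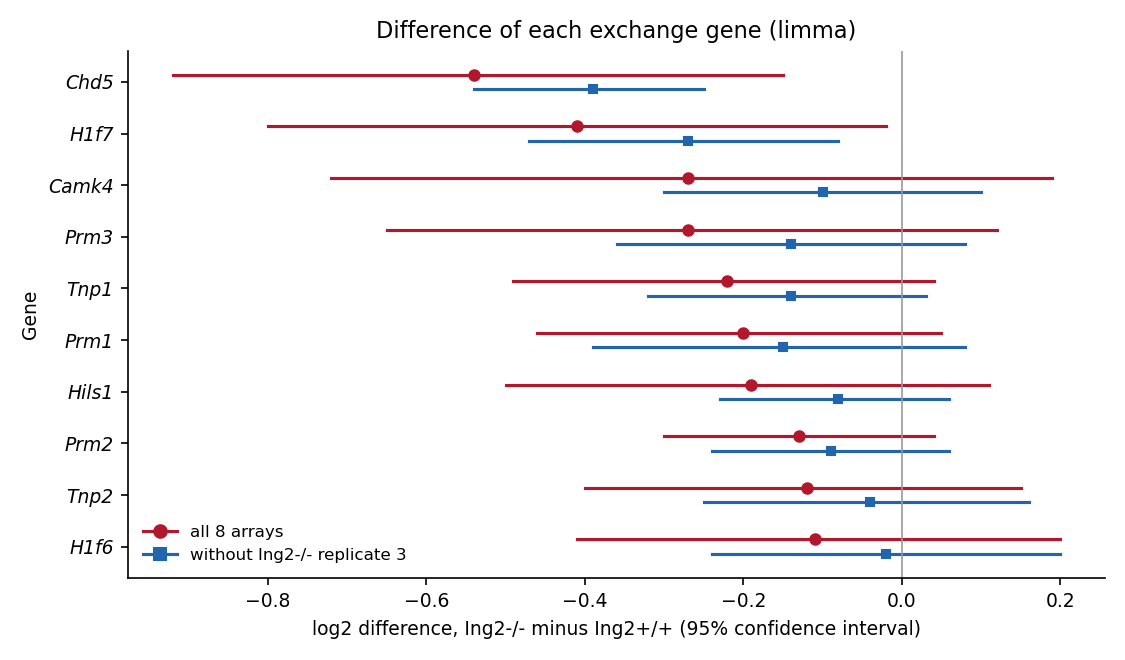
Difference of each gene between Ing2-/- and Ing2+/+ testes on the log2 scale (horizontal axis) with its 95% confidence interval from limma, for all 8 arrays (red) and without Ing2-/- replicate 3 (blue). The intervals of Chd5 (−0.92 to −0.15) and H1f7 (−0.80 to −0.02) leave out 0, and those of the other 8 genes hold it.

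Ordered by their differences, the genes run Chd5, H1f7, Camk4, Prm3, Tnp1, Prm1, Hils1, Prm2, Tnp2 and H1f6. Neighbours in this order were compared within each array by an exact two-sided permutation test, which gave p = 0.0357 for Chd5 against H1f7, p = 0.0536 for H1f7 against Camk4, and values from 0.679 to 1 for the other neighbours, which do not differ beyond their spread. All 45 pairs of the 10 genes were compared in this way. At the smallest p that the test can give, 0.0179, there were 10 pairs, 7 of them with Chd5. Chd5 was lower relative to each of the other 9 genes with p under 0.05, by 0.13 against H1f7 to 0.43 against H1f6. The order was taken from these same arrays, so it fixed the direction of these 9 comparisons and of those between neighbours. The 9 comparisons also share the levels of Chd5 and are not separate results. Adjusted over the 45 pairs, 0 passed (smallest adjusted p = 0.0804 from the exact test). Without Ing2-/- replicate 3, 5 of the 9 pairs with Chd5 had the smallest p then possible, 0.0286 by the exact permutation test, and those with Prm1, Prm3, H1f6 and H1f7 had p = 0.0571. The difference of Chd5 from Tnp1 was 0.31 and 0.25 without that array, from Prm1 0.33 and 0.24, from Prm3 0.27 and 0.26, and from H1f7 0.13 and 0.12.

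To set each gene against spermatids as a whole, its level in an array was taken relative to the mean of the round or of the elongating spermatid markers of that array, lists that hold none of the 10. On this relative scale the protamines, Prm3, the transition proteins, H1f6, Hils1 and Camk4 had positive differences. Those of Chd5 and H1f7 were negative, and the largest positive ones were those of H1f6 (0.29 and 0.23). The marker lists themselves had median differences of −0.37 (round) and −0.36 (elongating), beside 0.03 over all probe sets. A gene of unchanged level thus has a positive value on this scale. Before this step, single markers had differences from −0.74 to −0.15 (round) and from −0.62 to −0.09 (elongating). The difference of Hils1 (−0.19) lies in both ranges, and those of Tnp2 (−0.12) and Prm2 (−0.13) only in the second. The share of all probe sets that lie above or below the controls on the relative scale was not counted. Relative to round spermatid markers, Hils1 was higher by 0.21 and the Ing2-/- testes, at 0.11 to 0.27 relative to the Ing2+/+ mean, lay above all Ing2+/+ testes, at −0.03 to 0.02 (exact permutation p = 0.0179). Relative to elongating spermatid markers it was higher by 0.14, with Ing2-/- testes from 0.09 to 0.19 and Ing2+/+ testes from −0.02 to 0.03 (exact permutation p = 0.0179). Tnp2 was higher by 0.28 and 0.21 (exact permutation p = 0.0357 for each), and Prm2 by the same 0.28 and 0.21 (exact permutation p = 0.0536 for each), with all 5 Ing2-/- testes of both genes above all Ing2+/+ testes. Without Ing2-/- replicate 3 the values of Prm2 were 0.19 and 0.14, those of Tnp2 0.23 and 0.19, and those of Hils1 0.20 and 0.15. With the median of the round spermatid markers in place of their mean, Hils1 had 0.15 (exact permutation p = 0.143) and Tnp2 and Prm2 each 0.22 (exact permutation p = 0.179). With the median of the elongating spermatid markers, Hils1 had 0.17 (exact permutation p = 0.0179) and Tnp2 and Prm2 each 0.24 (exact permutation p = 0.0357).

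In contrast, Chd5 was lower relative to the mean of either set of markers in all 5 Ing2-/- testes. Its difference of −0.54 nevertheless lies within the range of single markers in both sets. Relative to round spermatid markers it was at −0.13, with Ing2-/- testes from −0.21 to −0.04 (exact permutation p = 0.0357). Relative to elongating spermatid markers it was at −0.20, with Ing2-/- testes from −0.34 to −0.13 and Ing2+/+ testes from −0.02 to 0.01 (exact permutation p = 0.0179). Without replicate 3 these values were −0.11 and −0.16, and with the median of the markers −0.19 (exact permutation p = 0.107) and −0.17 (exact permutation p = 0.0536). H1f7 stayed near the markers, at −0.01 and −0.07, with exact permutation p = 0.929 and p = 0.196. For the other genes the relative values were 0.18 and 0.11 for Tnp1, 0.20 and 0.13 for Prm1, 0.13 and 0.07 for Prm3, 0.29 and 0.23 for H1f6 and 0.13 and 0.07 for Camk4, with exact permutation p from 0.0714 to 0.482. Without replicate 3 they were 0.14 and 0.09 for Tnp1, 0.13 and 0.08 for Prm1, 0.14 and 0.09 for Prm3, 0.26 and 0.21 for H1f6, 0.18 and 0.13 for Camk4 and 0.01 and −0.04 for H1f7. Of the 20 comparisons, 6 had p under 0.05 and 0 passed when adjusted over the 20 (smallest adjusted p = 0.119 from the exact test). With arrays shifted to equal round spermatid markers, limma gave adjusted p-values over all probe sets from 0.130 to 0.959 for the 10 genes, and from 0.152 to 0.648 with equal elongating spermatid markers.

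**Figure D3:**
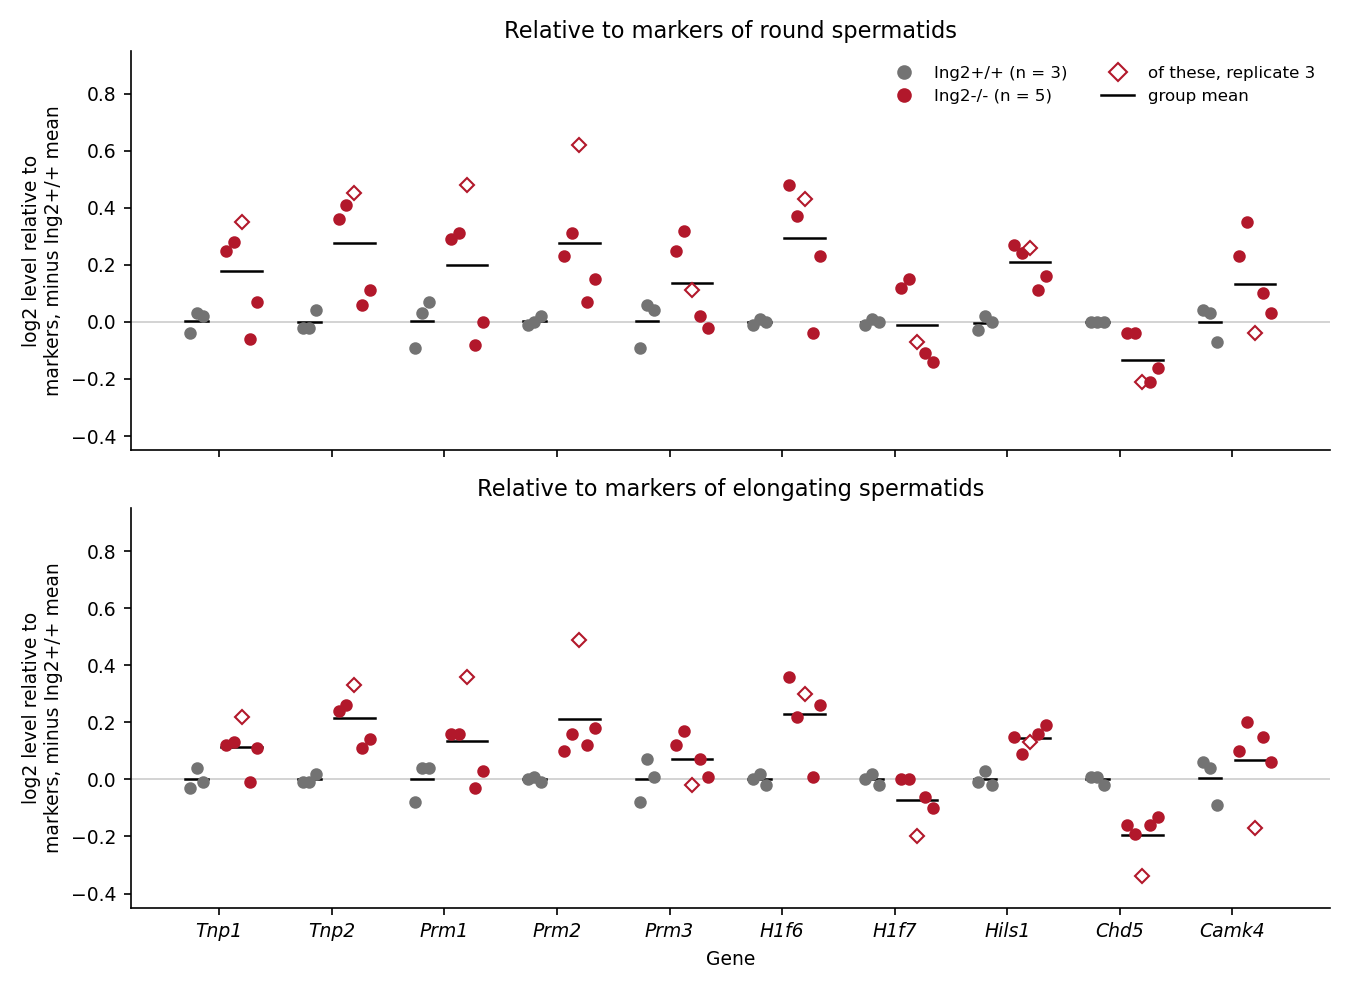
Level of each gene relative to the mean of 14 round spermatid markers (top) or 13 elongating spermatid markers (bottom) of the same array, on the log2 scale and minus the Ing2+/+ mean (vertical axis). Grey points are the 3 Ing2+/+ and red points the 5 Ing2-/- testes, with replicate 3 of the latter as an open diamond and bars at group means. The Ing2-/- testes lie above all Ing2+/+ testes for Hils1, Tnp2 and Prm2 and below them for Chd5 in both panels. Both marker means were lower in every Ing2-/- testis than in the controls, so a gene of unchanged level also lies above the controls here. How many of all probe sets lie above or below the controls here was not counted.

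The other genes of the exchange were taken as 7 lists with 65 genes, of which 58 have a probe set of their own. Their median difference was −0.16 and 38 lay below 0, as did 15236 of all 35557 probe sets. Limma called 1 lower and 0 higher (3.03% and 1.79% of all probe sets). Without Ing2-/- replicate 3 the median was −0.09, and 8 were called lower and 1 higher (6.77% and 7.31% of all probe sets).
The called gene is H2ap, a short H2A variant of the testis. It had 8.84, 8.98 and 9.09 in the controls and 8.30, 8.49, 7.83, 8.32 and 7.94 in Ing2-/- testes, with no overlap and a difference of −0.79 (SE 0.153, adjusted p = 0.0298 from limma), or −0.70 without replicate 3 (adjusted p = 0.0131). Its call was lost without any 1 of the Ing2+/+ arrays or without Ing2-/- replicate 5. Of the 9 measured genes in the list of testis core histone variants the median was −0.23, or −0.12 without replicate 3, with 1 called lower. H2al3, a short H2A variant as well, had −0.52 (adjusted p = 0.0780 from limma) and −0.45 without that array, while the testis H2A and H2B genes H2ac1 (0.11) and H2bc1 (0.07) had positive differences. H2bc1, H2ax and H3f3a also have probe sets shared with other genes, which were not used. H3f3a (−0.13) lay below the median of unnamed probe sets on every array, so its sign carries little weight.

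The 6 measured linker histones outside the testis-specific group had a median of 0.16, or 0.11 without replicate 3, with 0 called in either direction by limma. At an unadjusted p under 0.05, 1 of 6 was higher, H1f2, a share near that of all probe sets, 16.0%. H1f2 and H1f5, linker histones of dividing cells, had differences of 0.37 and 0.26 (adjusted p = 0.171 and 0.190 from limma), and 0.28 and 0.18 without replicate 3. Hence the 3 testis linker histones had negative differences and 5 of these 6 positive ones, though with equal Sertoli markers all 6 were negative, and the gap between both groups was not tested. Of the 5, H1f3 (0.03) and H1f8 (0.05) lay below the median of unnamed probe sets on every array, so their signs carry little weight.

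In the list of histone acetylation, ubiquitination and degradation, 10 of 11 genes lay below 0 and 0 were called, with a median of −0.17 (−0.12 without replicate 3). Epc1, a subunit of the acetyltransferase complex of Kat5, had −0.24 (adjusted p = 0.0719 from limma), and −0.22 without it. Ubr2, a ubiquitin ligase that acts on histone H2A in the testis, was the exception, with 7.77, 7.73 and 7.67 in the controls and 8.02, 8.06, 8.74, 8.05 and 8.25 in Ing2-/- testes. All Ing2-/- testes were above all controls, and the difference of 0.50 (SE 0.157, adjusted p = 0.0897 from limma) became 0.37 and was called without replicate 3 (adjusted p = 0.0155).

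The 9 genes that regulate transcription in spermatids had a median of −0.33, and −0.19 without replicate 3. Of the 9, 8 lay below 0, 0 were called and 4 had negative differences with an unadjusted p under 0.05 (11.8% of all probe sets). Zmynd15, a repressor of spermatid genes, had −0.58 (adjusted p = 0.0642 from limma), and Tbpl1, a TATA-binding protein relative, had −0.35 (adjusted p = 0.0726). Both were called lower without Ing2-/- replicate 3, as were 4 of the 9 in all, with 6.77% of all probe sets (adjusted p = 0.0193 and 0.0291 for these genes). Of the 8 genes that store and translate spermatid mRNA, 7 lay below 0, with a median of −0.23 (−0.15 without replicate 3) and 0 called. Pabpc2, a poly(A)-binding protein, had −0.33 (adjusted p = 0.0722 from limma) and Papolb, a cytoplasmic poly(A) polymerase, −0.38 (adjusted p = 0.109), and both were called lower without replicate 3.

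The 6 genes of DNA strand breaks and ADP-ribosylation had a median of 0.18, or 0.17 without replicate 3, with 0 called and 3 higher at an unadjusted p under 0.05, where 16.0% of all probe sets were. Parp1 and Parg, which add and remove poly(ADP-ribose), had 0.24 and 0.20 (adjusted p = 0.106 and 0.108 from limma), and 0.19 and 0.18 without replicate 3. The 9 histone and protamine chaperones and kinases had a median of 0.01 (0.03 without replicate 3) and 0 called. Tssk6, a spermatid kinase needed for histone removal, came nearest, with 8.13, 8.39 and 8.48 in the controls and 7.93, 7.87, 7.20, 7.76 and 7.51 in Ing2-/- testes. All Ing2-/- testes were below the controls, the difference was −0.68 (SE 0.169, adjusted p = 0.0545 from limma), and without replicate 3 it was −0.57 and called (adjusted p = 0.0214). Nasp, a chaperone of linker histones, had −0.24 (adjusted p = 0.188 from limma), and −0.17 without that array. The levels of Sertoli and Leydig cell markers given above were higher in the same arrays, and their part in the positive differences of these lists was not tested. With equal Sertoli markers, where the median of all probe sets was −0.52, every positive difference of a pathway gene became negative, among them Ubr2 (−0.05), H1f2 (−0.17), H1f5 (−0.29), Parp1 (−0.30), Parg (−0.35), H2ac1 (−0.44) and H2bc1 (−0.47), and the strand break list had a median of −0.37.

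**Figure D4:**
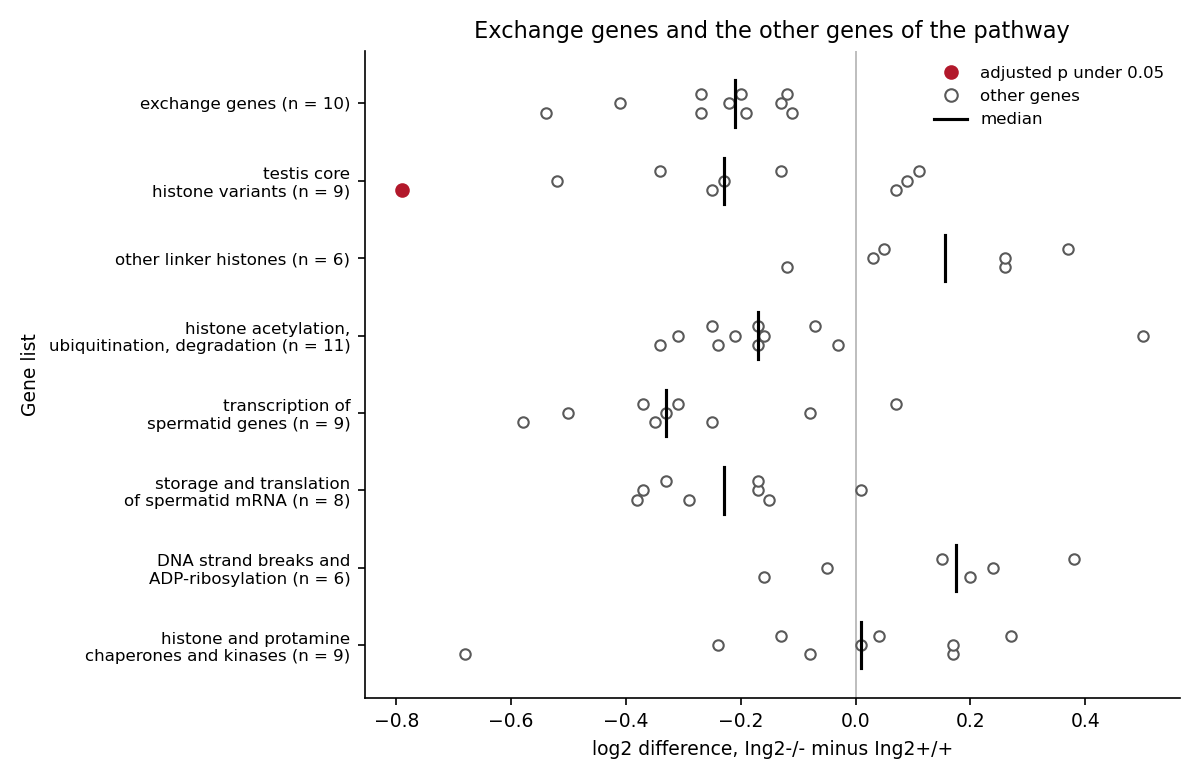
Difference between Ing2-/- and Ing2+/+ testes on the log2 scale (horizontal axis) of each of the 10 exchange genes and of the 58 measured other genes of the pathway in 7 lists, 1 point per gene, with a bar at the median of each list. H2ap, at −0.79, is the single called gene (filled), and the medians of the other linker histones (0.16) and of the strand break genes (0.18) lie above 0.

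The genes with the profile most like each exchange gene were taken by the root mean square difference of their levels over the 8 arrays, each minus its Ing2+/+ mean. Those most like Chd5 were Dnajc27, Lkaaear1 and Mycbpap, at 0.030, 0.030 and 0.033 and with differences of −0.52, −0.54 and −0.53. For H1f7 they were Spo11, Lelp1 and Dnali1, at 0.024, 0.024 and 0.035, of which Lelp1 is among the elongating spermatid markers used above. The nearest of the 10 to Chd5 was H1f7 and the reverse, at 0.11, farther than these.
Tnp1 was most like Fam216a, Sil1 and Spef1 (0.027 to 0.033), Tnp2 like Spata33, Ssna1 and Mtmr4 (0.033 to 0.034), and Hils1 like Mlc1, Mrgbp and Mfsd11 (0.020 to 0.027). Prm1 was most like Ndufb8, Rab1b and Strn4 (0.041 to 0.045), Prm2 like Rp9, Spcs1 and Ppp4r1 (0.023 to 0.026), and Prm3 like Slc8a2, Spata46 and Coprs (0.024 to 0.028). H1f6 was most like Nsl1, Plekhb2 and Skiv2l (0.043 to 0.055) and Camk4 like Ttc21a, Gdpd1 and Tex35 (0.051 to 0.058). None of the 10 genes had another of the 10 among its nearest 3, and the neighbours Prm1 and Prm2 on chromosome 16 were nearest, among the 10, to Tnp1 and to Tnp2. The search ran over all 19938 genes with a probe set of their own, so another of the 10 was unlikely to be among the nearest 3. All these points share the 8 arrays, and the likeness is a description.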

How the data were processed

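RNA of the whole testis was hybridized to 1 array per mouse (3 Ing2+/+, 5 Ing2-/-). Per the labels and methods, the authors deposited log2 values from RMA normalization, run in Affymetrix Expression Console (no version given in the sources used). Because RMA equalizes the arrays' distributions, levels are relative to the other transcripts of a testis. Array medians lay between 6.41 and 6.53. The scanner files were not used here.

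Gene names of probe sets came from the platform annotation, with symbols updated by gene ID in the table of GRCm38.p6 for 21698 of 21789 probe sets with 1 symbol; 1621 had several symbols and 12147 none. Where a gene has several probe sets of its own, the brightest stands for it. Genes of the pathway lists that have none, such as H2al1a, H3f3b, H1f0, H1f4, Rnf8 and Npm3, were not analysed here.

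Limma 3.58.1 (lmFit, eBayes, no covariate) in R 4.3.3 gave differences and adjusted p-values over 35557 probe sets; it was tested on simulated data. Single values were compared by exact two-sided permutation over the 56 divisions of 8 arrays into 3 and 5, whose smallest p is 0.0179. Python 3.11.15 with scipy 1.17.1 and matplotlib 3.10.9 gave the rest. The members, gene lists, markers and the rule for named genes (all members, called pathway genes and up to 2 per list with the smallest p, and 3 like genes per member) were chosen with earlier results of these data known. H2ac1, H2bc1, H2ax and H3f3a were named after their values were seen. Alternatives were each array left out, the replicate number as a block, probe sets above the median level, cyclic loess, equal Sertoli markers, the methods' random variance model, eBayes with trend and robust settings, and, for the comparison with markers, their median and limma on shifted arrays, the last added after seeing the data.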

Additional observations from a re-analysis of the deposited data

Results flagged for a closer look

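In 6 of 36 groups of 5 Ing2-/- arrays examined, 1 array lay far from the others by Dixon's criterion, where chance gives about 1 in 20, and it was Ing2-/- replicate 3 in all 6. The 36 groups share the same 5 arrays, so the 6 are not separate draws and cannot be set against that rate. Among the genes, the groups with such an array were Hils1, at 10.51 on the log2 scale, and Chd5, at 9.51. Among the marker means, relative to Ing2+/+, they were the pachytene spermatocyte markers, at −0.57, and the round spermatid markers, at −0.89. Relative to elongating spermatid markers, Prm2 lay far above the other Ing2-/- arrays, at 0.49, and Chd5 far below them, at −0.34. Without this array Hils1 differed by −0.08 and Chd5 by −0.39 between the groups, and relative to elongating spermatid markers Prm2 by 0.14 and Chd5 by −0.16.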

How the results depend on the processing

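Each of the 10 genes was refitted under 14 alternatives, 140 values in all, and 0 reversed direction; 129 kept their side of the threshold and 11 were newly called. With arrays shifted to an equal median of Sertoli markers, 10 of 10 genes were called lower (adjusted p from 0.0274 to 0.0455 from limma), with a median of −0.76, where 58.7% of all probe sets were called lower and the median of all probe sets was −0.52. The other new call was Chd5 without Ing2-/- replicate 3, so the number of called genes over the fits that leave out 1 array ran from 0 to 1. Their median ran from −0.26 to −0.12. Under those fits Chd5 had −0.59 to −0.39, with adjusted p-values from 0.00924 to 0.225 from limma. Deviations of samples with the same replicate number had correlations of −0.06, 0.18 and 0.01. These were not set against samples of unlike number, so whether the samples pair was not tested. With the replicate number as a block, 0 of the 10 and 0 of the pathway genes were called, and Chd5 had −0.60 (adjusted p = 0.176 from limma). The count of called pathway genes was 1, from 0 to 9 when 1 array was left out (9 without Ing2-/- replicate 3), 3 among probe sets above the median level, 6 after cyclic loess and 43 with equal Sertoli markers. Of these alternatives, the share of all probe sets called is given above only without Ing2-/- replicate 3 and with equal Sertoli markers. For the others it was not counted, so their counts cannot be read as a result about the pathway. The adjusted test of the 20 comparisons with markers says nothing about stability when 1 array is left out, since the exact permutation test cannot then give a p below 0.0476 (an Ing2+/+ array out) or 0.0286 (an Ing2-/- array out). With the median of the round spermatid markers in place of their mean the smallest unadjusted exact p was 0.107.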
